A study of Mus musculus with 8 samples.

Results

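Complement genes and their regulators were followed across 12 clusters of cultured mouse fat cell precursors and their differentiating progeny. The 7 genes were set by name: C1ra, C1s1, C4b, C3 and Cfb, which encode components of the cascade, and Serping1 and Clu, which encode inhibitors. Of these, 5 had at least 1 entry in the deposited table of cluster markers, with 33 of its 13337 entries, among 3903 gene symbols in all. Cfb and Clu had an entry in 0 clusters, and no level is known for them from these data.

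The cells came from inguinal white adipose tissue of young adult C57BL/6 mice, either wild type (WT) or lacking both Hmgn1 and Hmgn2 (DKO), whose products bind nucleosomes. They were plated on collagen, grown to confluence and sampled as preadipocytes (day 0) or at day 6 of browning, after a differentiation cocktail of insulin, dexamethasone, IBMX, T3 and rosiglitazone followed by medium with insulin and T3 only. Each of the 4 groups, WT day 0, DKO day 0, WT day 6 and DKO day 6, had 2 samples, which makes 8 samples of droplet single-cell RNA. The table pools them, so genotypes and days could not be compared and no value below has a replicate.

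The complement system is a cascade of plasma proteins that marks targets for uptake and lysis. In the classical pathway the protease C1r activates C1s, which cleaves C4 and C2, and the fragments assemble into an enzyme that cleaves C3, the protein on which all routes converge. Factor B, the product of Cfb, does the equivalent work of C2 in the alternative pathway. C1 inhibitor, made from Serping1, blocks C1r and C1s, and clusterin, made from Clu, restrains the terminal lytic complex. Liver supplies most of the circulating proteins, but fibroblasts and adipose tissue also make several of them. Mouse C1ra and C1s1 are the genes for C1r and C1s, and C4b is the gene for C4.

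Each value is a detection level, the percent of cells with at least 1 captured molecule of the gene, given for the cells of a cluster and for all other cells. A higher detection does not by itself mean a higher mean, since a gene can be found in more cells at fewer molecules per cell. An entry exists only where the gene passed the detection and fold change minimums of the study's comparison in that cluster, and where no entry exists the level may still be substantial. A difference of at least 10 percentage points was counted as higher or lower. The clusters were built from the expression of these same cells, so a cluster set against the rest is a description and not a test. The number of cells behind each percent is unknown, and no counting interval is given.

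The members lie on 4 chromosomes of the mm10 genome. C1ra (chromosome 6, 124512405 to 124523443, plus strand) and C1s1 (chromosome 6, 124530345 to 124542359, minus strand) face each other tail to tail, 6901 bases apart. C4b (chromosome 17, 34728380 to 34743882, minus strand) and Cfb (chromosome 17, 34856374 to 34862518, minus strand) sit in the same segment of chromosome 17, with 112491 bases between them. C3 lies elsewhere on chromosome 17 (57203970 to 57228136, minus strand). Serping1 is on chromosome 2 (84765387 to 84775444, minus strand) and Clu on chromosome 14 (65968483 to 65981547, plus strand). All 7 are annotated as protein-coding.

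The promoters of C3, C1ra and C1s1, the members with a window in the RefSeq table used here, are shown side by side. Each runs from 250 bases before to 50 bases after a RefSeq start site in GRCm38.p6, 5′ to 3′ on the gene's strand. The capitals mark matches to 5 short motifs searched on both strands: TGANTCA for AP-1, TTCNNNGAA for STAT factors, TTGCNNAA for C/EBP, GGGNNNTCC for NF-kB and TATAAA for the TATA box.
C3, chr17:57228087-57228386, minus strand: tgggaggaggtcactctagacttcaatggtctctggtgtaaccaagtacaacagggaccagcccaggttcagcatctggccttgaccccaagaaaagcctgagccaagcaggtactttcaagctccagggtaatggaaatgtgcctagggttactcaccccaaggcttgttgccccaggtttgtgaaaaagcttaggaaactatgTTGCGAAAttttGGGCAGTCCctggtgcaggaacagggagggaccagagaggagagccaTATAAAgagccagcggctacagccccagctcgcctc
C1ra, chr6:124512371-124512670, plus strand: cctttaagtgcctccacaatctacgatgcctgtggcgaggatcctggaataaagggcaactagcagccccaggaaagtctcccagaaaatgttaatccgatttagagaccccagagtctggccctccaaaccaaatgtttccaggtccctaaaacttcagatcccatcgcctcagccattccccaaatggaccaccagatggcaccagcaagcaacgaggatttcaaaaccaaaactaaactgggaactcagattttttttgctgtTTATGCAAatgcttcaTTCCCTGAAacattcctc
C1s1, chr6:124542310-124542609, minus strand: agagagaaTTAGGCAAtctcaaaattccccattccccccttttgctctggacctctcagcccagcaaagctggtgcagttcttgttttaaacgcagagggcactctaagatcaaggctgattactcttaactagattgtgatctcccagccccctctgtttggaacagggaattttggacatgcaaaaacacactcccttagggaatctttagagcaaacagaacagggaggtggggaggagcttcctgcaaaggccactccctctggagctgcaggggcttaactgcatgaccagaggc

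A C/EBP match was present in each of the windows shown, but for C1s1 it depended on the start site. A second window of C1s1, chr6:124542272-124542571, begins past that match and held 0 matches to the 5 motifs. Counted from the start site as position 0, it was TTGCGAAA at position -45 for C3, TTATGCAA at position 16 for C1ra and TTAGGCAA at position -242 for C1s1. The motif occurred in 10.8% of the 32851 promoter windows of this length. C3 also held GGGCAGTCC at position -33, a match to the NF-kB letters found in 17.8% of windows, and TATAAA at position 14, found in 13.6%. C1ra held TTCCCTGAA at position 32, which matches the STAT letters, as 8.3% of windows did. The AP-1 letters, present in 7.81% of windows, were in 0 of these 3. No match overlapped another, and a match is only a run of letters, not a binding site.

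Among all cells, detection ran from 27.5% to 70.0% for the 5 genes with an entry. These totals follow from the paired percents once the share of each cluster is known, and the clusters where a gene was listed gave the same total within 0.0793 percentage points. Serping1 was found in 70.0% of all cells, C1s1 in 49.7%, C4b in 42.4%, C1ra in 30.0% and C3 in 27.5%. Among these 5 genes Serping1 was thus the most widely detected and C3 the least, while Cfb and Clu could not be ranked.

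**Figure D1:**
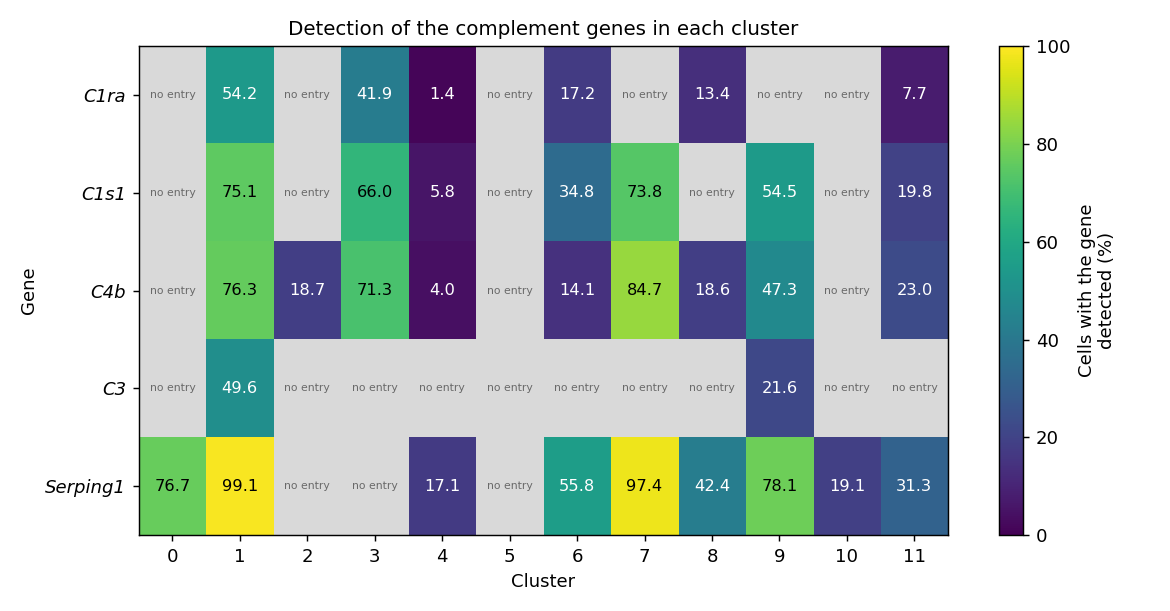
Percent of cells with each gene detected (colour and number) for the 5 complement genes with an entry (rows) in clusters 0 to 11 (columns), over the pooled cells of the 8 samples; grey marks a cluster without an entry. Values are high in clusters 1, 3 and 7, up to 99.1%, and low in clusters 4 and 11.

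The proteases that start the classical pathway were both high in clusters 1 and 3. For C1ra, detection reached 54.2% inside cluster 1 compared with 26.0% outside it, a difference of 28.2 percentage points. In cluster 3 it was found in 41.9% against 28.6%. Lower detection was seen in cluster 6 (17.2% against 31.0%), cluster 8 (13.4% against 31.0%), cluster 11 (7.7% against 30.3%) and cluster 4 (1.4% against 33.0%). The span from cluster 4 to cluster 1 came to 52.8 percentage points. In the 6 clusters without an entry, C1ra had a mean detection of 30.6%, close to its total of 30.0%.

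C1s1 was found in 75.1% of cluster 1 cells, compared with 45.5% outside. It reached 73.8% in cluster 7 against 48.0%, and 66.0% in cluster 3 against 47.8%. It was detected in 54.5% of cluster 9 against 49.4%, a gap of 5.1 points that did not reach 10. Detection was 34.8% in cluster 6, where it was 50.9% outside, 19.8% in cluster 11 against 50.2%, and 5.8% in cluster 4 against 54.4%. Clusters 1 and 7 lay closer to each other for this gene than either lay to cluster 3, although their spread over samples is unknown. The 5 clusters without an entry had a mean of 46.6%.

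C1r and C1s act as partners in 1 complex, and their genes were past 10 points in the same direction in 5 of the 5 clusters that listed both. C1s1 was found in more cells than C1ra in each of them. The same direction was seen for each of the 10 pairs among the 5 members with an entry, in every cluster where both were past 10 points, so that it was not particular to these partners. For the pairs with C3 this rested on 1 cluster. The other pairs included cluster 4, where 92.8% of all genes listed were lower. The share of gene pairs in general with such agreement is not given, so the counts do not set the members apart.

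C4b, whose product is the substrate of C1s, was most widely detected in cluster 7, at 84.7% compared with 39.4% outside it. This gap of 45.3 percentage points was the largest positive one of any member. The order differed by log2 odds ratio, cluster against all other cells. Serping1 had 5.88 in cluster 1 and 4.13 in cluster 7, and C4b had 3.09 in cluster 7. The gap of Serping1 in points was limited by its high detection outside, 68.1% for cluster 7. In cluster 1 C4b was found in 76.3% against 36.8%, and in cluster 3 in 71.3% against 39.0%. Cluster 9 stood between, with 47.3% against 42.1%. Below the rest were cluster 11 with 23.0% against 42.7%, cluster 2 with 18.7% against 45.6%, cluster 8 with 18.6% against 43.9%, cluster 6 with 14.1% against 44.6% and cluster 4 with 4.0% against 46.4%. The percents of clusters 2 and 8 lay 1 rounding step apart, so their order is not read. For all neighbours in this order the spread is unknown, as no sample has its own value. The 3 clusters without an entry had a mean of 40.3%.

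C4b separated the clusters more widely than C1s1 did. Its percent exceeded that of C1s1 by 10.9 points in cluster 7, and by 5.3, 3.2 and 1.2 points in clusters 3, 11 and 1. In cluster 6, by contrast, C4b minus C1s1 came to -20.7 points, and in clusters 9 and 4 to -7.2 and -1.8. Both genes were past 10 points in 6 clusters, cluster 4 among them, in the same direction in 6 of the 6, as were the other pairs of members.

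C3, the central component, had only 2 entries. Cluster 1 cells carried it in 49.6% of cases and the remaining cells in 23.9%, which is 25.7 points apart. In cluster 9 it was found in 21.6% against 27.9%, a difference of -6.3 points, the only negative gap among the 4 members listed there. Over the 10 clusters without an entry its mean was 24.1%. Cluster 1 held 25.5% of the cells in which C3 was detected, with 14.1% of all cells.

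Serping1, the inhibitor of C1r and C1s, was near saturation in cluster 1, with 99.1% against 65.2% of the other cells, and in cluster 7, with 97.4% against 68.1%. It was detected in 78.1% of cluster 9 against 69.5% and in 76.7% of cluster 0 against 68.9%. These gaps of 8.6 and 7.8 points did not reach 10. They lay below the medians of all genes listed in those clusters, 23.9 and 17.1 points. The nearest member values past 10 points were 13.3 for C1ra in cluster 3 and -13.8 for C1ra in cluster 6. Serping1 was lower in cluster 6 (55.8% against 71.2%), cluster 8 (42.4% against 71.8%), cluster 11 (31.3% against 70.6%), cluster 10 (19.1% against 71.7%) and cluster 4 (17.1% against 75.6%). The 3 clusters without an entry had a mean of 78.4%. With cluster 4 left out of the other cells, the gap in cluster 0 shrank to 1.27 points, and with clusters 4 and 10 left out it was -1.22.

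Of the 33 entries, 11 (33.3%) were higher by at least 10 points, 17 (51.5%) lower and 5 in between. Over all 13337 entries of the table, 40.0% were higher and 37.4% lower by this measure. The median difference was -13.8 points for the members and 2.7 for all entries.

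The higher entries fell in clusters 1, 3 and 7. All 5 members listed in cluster 1 were higher there, where 58.8% of the genes listed were, and their median gap was 29.6 points against 16.0 for all genes listed. Cluster 3 listed C1ra, C1s1 and C4b, 3 of 3 higher against 48.7% of its genes, with a median of 18.2 against 9.4 points. Cluster 7 listed C1s1, C4b and Serping1, 3 of 3 higher against 59.8% of its genes, with medians of 29.3 and 12.9 points. These shares are high for genes in general, so that the counts alone set the members little apart. The gaps of C4b, at 39.5, 32.3 and 45.3 points in clusters 1, 3 and 7, lay above the 95th percentile of the genes listed, which was 35.0, 25.6 and 30.0.

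**Figure D2:**
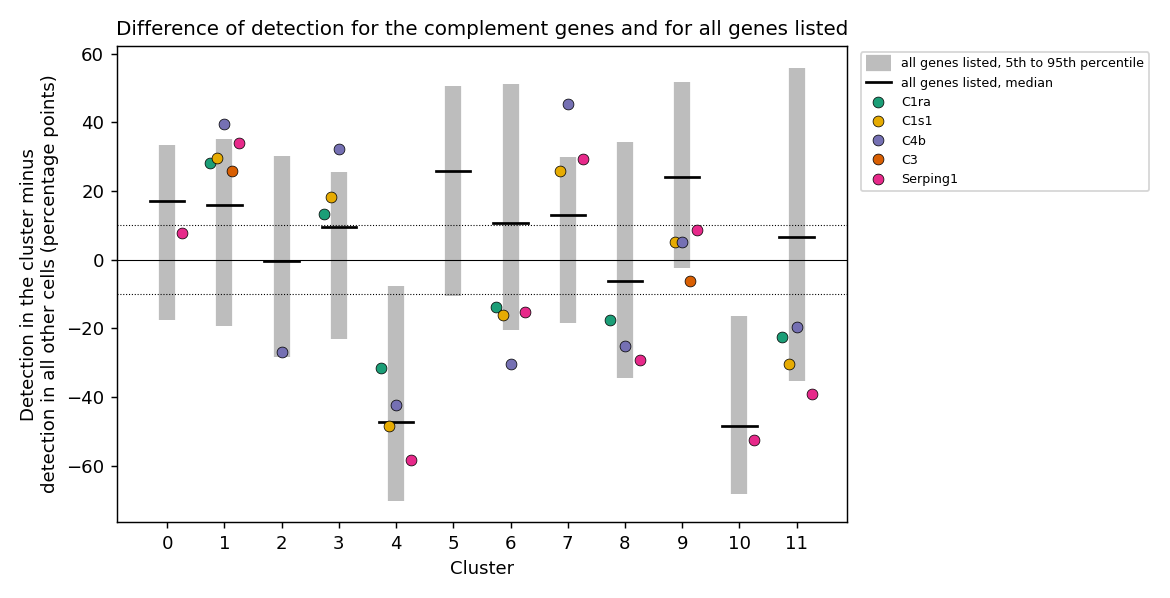
Detection in the cluster minus detection in all other cells, in percentage points, by cluster; points are the 5 complement genes, grey bars span the 5th to the 95th percentile of all genes listed for that cluster, black lines mark their median and dotted lines mark 10 points in either direction. Members lie above the median in clusters 1, 3 and 7 and below it in clusters 0, 2, 6, 8, 9, 10 and 11. Clusters 0, 2 and 10 list 1 member each.

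The lower entries differed in how far they stood from other genes. In cluster 6, 4 of 4 members listed were lower, where 14.9% of the genes listed were, and the medians were -15.75 points for the members and 10.7 for all genes. In cluster 11 the members C1ra, C1s1, C4b and Serping1 were 4 of 4 lower against 28.7% of its genes, with medians of -26.5 and 6.6 points. In cluster 8 they were 3 of 3 lower against 45.6%, with medians of -25.3 and -6.2. Cluster 2 listed only C4b, which was lower, as were 34.5% of its genes. In cluster 9 the 4 members listed were in between, where 76.9% of the genes listed were higher. The medians there were 5.15 points for the members and 23.9 for all genes. C3, at -6.3 points, lay below the 5th percentile of cluster 9, which was -2.5.

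Clusters 4 and 10 gave the largest drops of Serping1, but nearly all genes were scarce there. In cluster 4, 4 of 4 members were lower and so were 92.8% of the genes listed. The medians were -45.5 points for the members and -47.2 for all genes, a like size. In cluster 10 the difference for Serping1 was -52.6 points, the median of all genes listed there was -48.4, and 98.5% of those genes were lower. These values do not set the members apart from other genes in clusters 4 and 10.

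The clusters also differed in other cell programs. Of 8 adipocyte genes (Fabp4, Adipoq, Plin1, Lpl, Cd36, Pparg, Cidec and Lipe), 7 of 8 listed were higher in cluster 11 with a median gap of 72.95 points, where 44.4% of all genes listed were higher. In cluster 4, 5 of 8 were higher against 0.82% of all genes listed, and in cluster 8, 4 of 5 against 26.2%. Cluster 2 had 4 of 4 higher against 24.6%, and cluster 6 had 3 of 3 against 51.9%. In cluster 1, 6 of 7 listed were lower against 21.0% of all genes listed, and in cluster 3, 5 of 6 against 28.3%. Adipocyte genes were also lower in cluster 0 (5 of 6 against 15.0%), cluster 5 (5 of 6 against 5.87%) and cluster 10 (6 of 6 against 98.5%). In those clusters no member was counted as higher, but few were listed. Clusters 0 and 10 listed 1 member each, Serping1, and cluster 5 listed 0. Cluster 9 had 1 of 3 lower against 1.92%. Cluster 7, where members were higher, had 1 of 2 adipocyte genes higher and 0 lower. Of 6 proliferation genes, 6 of 6 were higher in clusters 6 and 9 and 5 of 5 listed in cluster 5, where 51.9%, 76.9% and 72.1% of all genes listed were higher. Proliferation genes were lower in cluster 1 (5 of 5 against 21.0%) and cluster 3 (6 of 6 against 28.3%). Cluster 7 had 4 of 4 lower against 13.9%, and cluster 0 had 6 of 6 against 15.0%. Clusters 2 and 8 had 5 of 6 and 4 of 5 lower, against 34.5% and 45.6%. Cluster 11 had 2 of 5 lower against 28.7%, and cluster 10 had 1 of 1 against 98.5%. Of 6 fibroblast genes, 5 had an entry. In cluster 4, 4 of 5 of these were lower, a share below the 92.8% of all genes listed, and in cluster 11, 3 of 5 were lower against 28.7%. Cluster 10 had 2 of 2 fibroblast genes lower against 98.5%. Cluster 7 had 2 of 2 higher against 59.8%. Clusters 1, 2 and 3 had 1 of 4, 1 of 4 and 1 of 3 higher, against 58.8%, 24.6% and 48.7%. In clusters 6 and 8, 0 of 3 and 0 of 4 were lower, against 14.9% and 45.6%. The part of these programs in the complement values was not tested. The immune list of 8 genes, among them Ptprc, Cd68 and Lyz2, had an entry in 0 clusters, as had the endothelial and glial lists.

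The shares of detecting cells restate these differences for sets of clusters. Clusters 1, 3 and 7 held 31.2% of all cells but 56.2% of the cells with C4b detected and 45.0% of those with C1s1. For C1ra, clusters 1 and 3 held 24.6% of cells and 40.1% of detecting cells. For Serping1, clusters 1 and 7 held 20.7% of cells and 29.2% of detecting cells. At the other end, clusters 2, 4, 6, 8 and 11 held 36.6% of all cells and 12.2% of the cells with C4b.

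**Figure D3:**
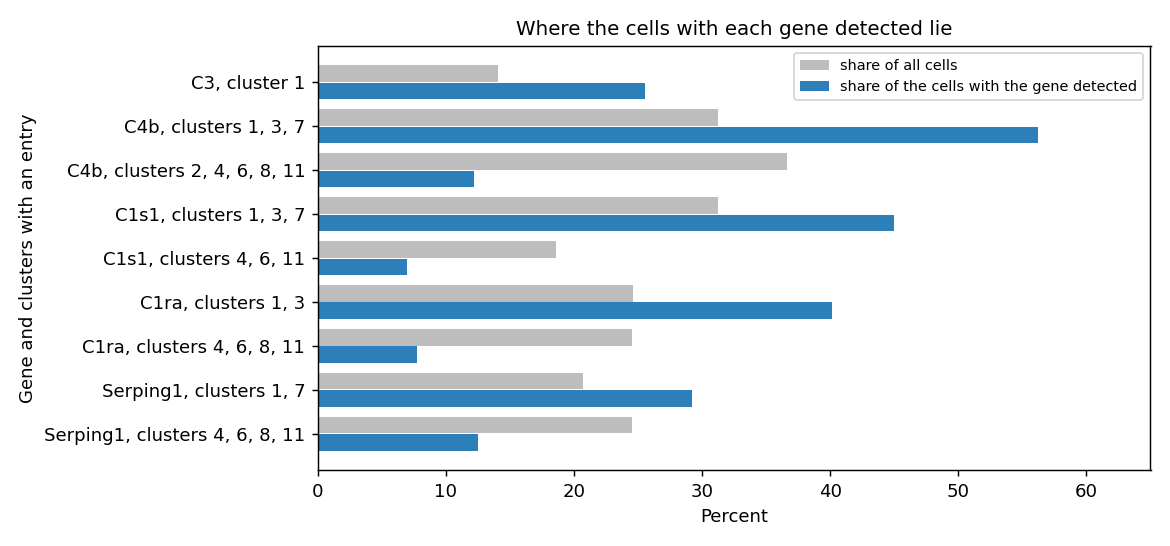
Share of all cells (grey) and share of the cells with the gene detected (blue), in percent, for each complement gene over the clusters named beside it, which are those of 1, 3 and 7 or of 2, 4, 6, 8 and 11 with an entry. The sets were formed from clusters where the gene was higher or lower, which fixes whether blue exceeds grey; for C4b the shares are 56.2% and 31.2% in clusters 1, 3 and 7, and for C3 25.5% and 14.1% in cluster 1.

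A wider list of 47 complement and related genes was then looked up, from initiators and terminal components to receptors, membrane regulators and the protease inhibitor A2m. Of these, 4 had an entry in the table as used here: C2, A2m, Colec12 and C1qbp. Their 22 entries were higher by 10 points in 7 cases, lower in 13 and in between in 2. Over all entries of the table, 40.0% were higher and 37.4% lower. A2m alone gave 11 of the 22, with 3 higher and 7 lower, so the counts mostly reflect 1 gene. Of the 4, only C2 belongs to the cascade as described above, so the counts are not a result about complement. The other 43 had no entry.

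C2, the partner of C4 in the enzyme that cleaves C3, was concentrated in cluster 1. It was found in 58.5% of cluster 1 cells compared with 12.2% outside, and cluster 1 held 44.2% of all cells with C2. Its detection was 7.4% in cluster 11, 3.5% in clusters 2 and 6 each and 0.6% in cluster 4, against 18.7% over all cells. C2 and C4b were thus higher together in cluster 1 and lower together in clusters 2, 4, 6 and 11, though nearly all genes listed were lower in cluster 4. C2 had no entry in clusters 3 and 7, where C4b was also higher, or in cluster 8, where C4b was lower. Whether they agree there is unknown.

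A2m, whose product is a broad inhibitor of proteases, was found in few cells of most clusters. Clusters 1, 3 and 7 had 0.7%, 1.0% and 0.4% of cells with A2m, but so had clusters 0, 5, 9 and 10, at 1.4%, 1.5%, 1.7% and 0.4%. It was found in 82.4% of cluster 2 against 15.8% and in 78.5% of cluster 6 against 19.5%. Cluster 11 had 46.0% against 23.5%. Colec12, a scavenger receptor with a collectin domain, was at 81.0% in cluster 2 against 63.3% and at 27.3% in cluster 11 against 66.1%. C1qbp, a mainly mitochondrial protein first found by its binding of C1q, was at 98.4% in cluster 11 against 78.8% and at 96.1% in cluster 5 against 77.5%.

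**Figure D4:**
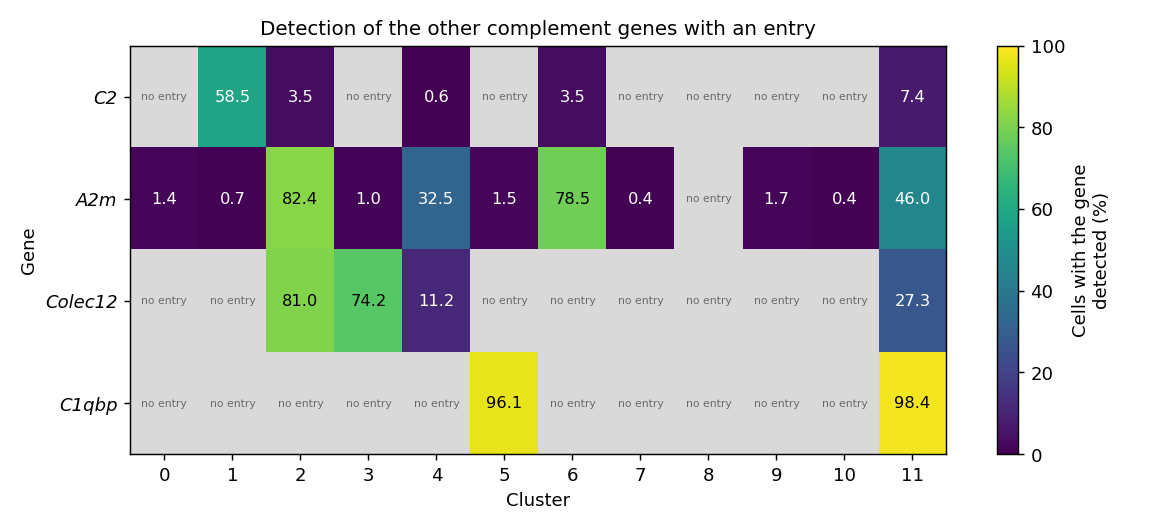
Percent of cells with the gene detected (colour and number) for 4 genes (rows) in clusters 0 to 11 (columns), with grey for no entry. The genes are those with an entry from the wider list of complement and related genes. C2 peaks in cluster 1 at 58.5%, whereas A2m is at 82.4% in cluster 2 and 78.5% in cluster 6.

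The genes most like each member were sought by the correlation of log2 odds ratios, cluster against all other cells, over the clusters that listed both. For C4b these were Npdc1 (Pearson's r = 0.963 over 8 clusters) and Serpinf1 (0.96 over 8 clusters). For C1s1 they were Islr (0.995 over 6 clusters) and Tmem176b (0.994 over 6), and for C1ra Tmem176b was again among them (0.998 over 5). For Serping1 they were Dcn, the gene for the matrix proteoglycan decorin (0.952 over 8), and Rasl11a (0.944 over 8). These are descriptions of high values among 110 to 394 genes per member. The clusters share libraries and differ in how many genes are detected, and without cluster 4 the values ran from 0.934 to 0.997.

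Islr shows the likeness in its percents, with 43.7%, 43.5% and 42.4% in clusters 1, 3 and 7, and with 8.5%, 3.1% and 0.4% in clusters 6, 11 and 4. Npdc1 was likewise at 86.0% in cluster 1 and at 32.8% in cluster 6. Dcn was at 89.3% in cluster 6, where Serping1 was at 55.8%, and was lowest in clusters 10, 4 and 11, at 35.4%, 36.5% and 63.3%.

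Several of these genes have near copies that can share reads. Of the 50-base windows in the last 500 bases of the longest annotated transcript, 38.1% for C4b also occurred in C4a, 19.1% for C1ra in C1rb and 18.0% for C1s1 in C1s2. The 3 copies had an entry in 0 clusters, so values for C4b, C1ra and C1s1 are uncertain to that extent. C1s1 is also overlapped on the opposite strand by Gm16567, and the annotated gene Gm20547 overlaps both C2 and Cfb on their own strand, so that C2 is uncertain as well. How reads that fit more than 1 gene were counted is not given in the sources used here. The table held no cell type known to lack these genes, and the part of free RNA in low percents such as 1.4% was not tested.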

How the data were processed

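Single-cell libraries of 8 samples in 4 groups of 2 were analysed as 1 pooled table. Per the labels and the study's methods, the authors mapped reads to mm10 with Cell Ranger 6.0.0, evened out depth between captures, filtered and log-normalized the cells in Seurat, dropped immune, glial and endothelial cells, and compared each of 12 clusters with the rest by MAST. No doublet removal is described, and none was possible here. The authors deposited, per gene and cluster, a detection fraction inside the cluster and another outside it, to 0.1%, and both were used as percents. Their fold changes and p-values were not used. The larger percent was never under 10.1%. There were 0 columns of single samples. Depth and cell numbers are unknown.

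Cluster shares were solved by least squares from the 10 genes listed for every cluster, with a sum of 99.9%, and tested on simulated data. Detection over all cells is the share-weighted mean of both fractions. For odds ratios, fractions were kept at least 0.0005 from 0 and 1. Clusters stay numbered. Likeness used genes listed in all but 1 of a member's clusters, at least 5, and the 2 highest correlations are named. From the wider list of complement and related genes, those with a gap of at least 10 percentage points were named. Some genes that met these rules are not reported here, and the counts leave them out. The motifs, the sets of clusters whose shares were summed, the 50-base windows and the percents of Islr, Npdc1 and Dcn were chosen after values or sequences were seen. Positions and overlaps are from GENCODE M21 (GRCm38), promoters from RefSeq, which matched 3 of the 7 members, with chromosome 18 left out of motif shares. Members and lists were chosen with earlier results of these data known. Calculations ran in Python 3.11.15 (pandas 2.3.3, numpy 2.4.6, scipy 1.17.1), and plots were drawn with matplotlib 3.10.9.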

Additional observations from a re-analysis of the deposited data

How the results depend on the processing

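No paired analysis was possible because the marker table pools all 8 samples. Of 71 recomputed values, 67 stayed near those reported, with percents within 0.2 points, counts within 1.5 times and clusters of highest or lowest detection unchanged. The 4 others were the clusters of lowest detection once clusters 4 and 10 were set aside, which became cluster 6 for C4b and cluster 11 for C1s1, C1ra and Serping1, by construction. Setting clusters 4 and 10 aside could not change the clusters of highest detection, which were 1 or 7. C3 was listed in neither 4 nor 10, so its lowest cluster could not change either. Those unchanged values are no sign of stability. Higher and lower entries numbered 15 and 18 at a minimum of 5 points, 9 and 12 at 20 points, 10 and 15 at a log2 odds ratio of 1, and 11 and 17 with the larger percent at least 25. The larger percent of every member entry was at least 27.9, so the last setting could not change the counts and is no sign of stability. The shares of all entries at these settings are not given, so these counts show only how the member counts move. Leaving cluster 4 out of the other cells, an alternative added after the data were seen, kept 10 higher and 13 lower entries but reduced the gaps in cluster 9 to 0.142 points for C1s1, 0.916 for C4b and 2.64 for Serping1, and that of C1ra in cluster 3 to 10.1. Detection over all cells was the same within 0.2 points under each set of genes for the shares. The effect of depth on these percents could not be measured.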
